A study of Mus musculus with 60 samples.

Results

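The 24 stool libraries of a mouse microbiota series of 60 libraries were compared between the 2 collection times, after 1 week and at day 28. A library was a member if its title names stool as the material. The treatment labels put 12 libraries at each time, and each set of 12 holds 6 libraries of unexposed controls and 6 of mice exposed to PET nanoparticles, so that exposure was kept as a block and both arms were pooled. PET is polyethylene terephthalate, the polyester of drinks bottles and textile fibres.

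The study profiled bacteria of stool, colon, lung and mouth in male mice. Exposed mice received 0.5 mg of PET nanoparticles per day by oral gavage, in 0.1 ml, daily over 28 days, and controls are labelled only as not exposed. Whether controls received gavage of the vehicle, and the strain, age and housing of the mice, were not stated in the labels. Stool DNA was extracted with a bead-beating kit made for soil, and the V3 to V4 stretch of the bacterial 16S rRNA gene was read as 300-base pairs. The design text speaks of 12 mice, while the 24 stool titles carry 24 different mouse numbers. No label ties a week 1 library to a day 28 library of the same animal, so nothing was paired, and the p-values measure the spread between libraries.

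The 16S rRNA gene is present in all bacteria and its variable stretches differ between taxa, so read counts of sequence variants (features) give the relative make-up of a community but not its absolute size. A share can rise because a taxon grew or because others shrank, and these cannot be told apart here. The hindgut of the mouse is dominated by obligate anaerobes. Bacteroidota such as Bacteroides and the Muribaculaceae break down plant and mucus glycans and release acetate and propionate, while many Clostridia, above all the Lachnospiraceae, ferment fibre and supply butyrate to the gut lining. Lactobacilli reach stool from the upper gut, and facultative anaerobes such as the enterobacteria usually stay rare in a healthy mouse.

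The libraries held 16521 to 1083575 counts at week 1 (median 415650) and 245032 to 602305 at day 28 (median 446254). Week 1 control 1 was the shallow library, and the next at week 1 held 288635 counts. The times did not differ in depth beyond their spread (difference in mean prokaryote counts -22981.5, exact permutation test within arms, two-sided p = 0.785). Prokaryote features held 99.96% of the stool counts. All 8 families that define mouse stool in the list used here (Lachnospiraceae, Muribaculaceae, Oscillospiraceae, Ruminococcaceae, Rikenellaceae, Bacteroidaceae, Prevotellaceae and Lactobacillaceae) had counts in all 24 libraries, and together they made up 57.1% to 75.3% of a week 1 library and 67.0% to 79.2% of a day 28 library.

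Some libraries stood apart before any comparison was made. Week 1 PET 6 and day 28 control 1 held the most features at a common depth and the most counts of genera known as contaminants of DNA extraction reagents. That list summed to 0.820% of week 1 PET 6 (95% Wilson interval 0.803% to 0.837%) and to 1.31% of day 28 control 1 (1.28% to 1.34%), against 0 to 0.0285% in the other 22 libraries (median 0.0119%). Such intervals, and the limits given below for counts of 0, cover counting error only, since PCR reads without molecular identifiers are not independent molecules. The library names also carry a closing position, which runs on from C11 to H12 for mouse numbers 83 to 96 and starts again at A1 for mouse number 97. The first run of positions holds all 12 week 1 libraries and 2 day 28 libraries, control 1 and control 6. The second run holds the other 10 day 28 libraries, so time and position run are almost the same split. Day 28 control 6 and PET 6 carry leading numbers from a separate range. The labels do not say what the positions and numbers stand for, and values within these splits are given with the results below.

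Community make-up differed modestly between the times, while the number of taxa was not shown to differ. The share of the squared Bray-Curtis distance between feature profiles that lay between the times was R2 = 0.0893 (exact permutation test within arms, p = 0.00113, adjusted over the 4 community measures 0.00453). These profiles were shares of all prokaryote counts of a library. They were not thinned to the common depth of 16513 counts used for richness and the Shannon index. The mean distance was 0.520 over the 66 pairs of week 1 libraries, 0.556 over the 66 pairs of day 28 libraries and 0.563 over the 144 pairs across times, so a library was only slightly less like those of the other time than like those of its own. The Shannon index, which weighs how many features there are and how evenly they are filled, ran from 4.16 to 4.998 at week 1 (median 4.42) and from 4.57 to 4.88 at day 28 (median 4.73). The ranges overlap, with the day 28 libraries lying inside the upper part of the week 1 range. Its mean rose from 4.50 ± 0.231 to 4.72 ± 0.105 (SD, n = 12 each), a difference of 0.221 (exact permutation p = 0.00739, adjusted 0.0144).

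The balance of the main phyla moved as well. The log2 ratio of Firmicutes to Bacteroidota was -0.305 ± 0.420 at week 1 (lowest -0.875, median -0.311, highest 0.596) and 0.101 ± 0.258 at day 28 (lowest -0.204, median 0.0711, highest 0.755). It rose by 0.407 (exact permutation p = 0.0108, adjusted 0.0144), and the ranges overlapped. Richness at the common depth was 431 ± 190 features at week 1 (lowest 180, median 406, highest 985) and 452 ± 66.9 at day 28 (lowest 387, median 435, highest 646). Its difference of 21.6 features had an exact permutation p of 0.761 and was decided by 1 library: without week 1 PET 6 it was 69.9 features (p = 0.0119), and without both of the richest libraries 50.9 (p = 0.0313).

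**Figure D1:**
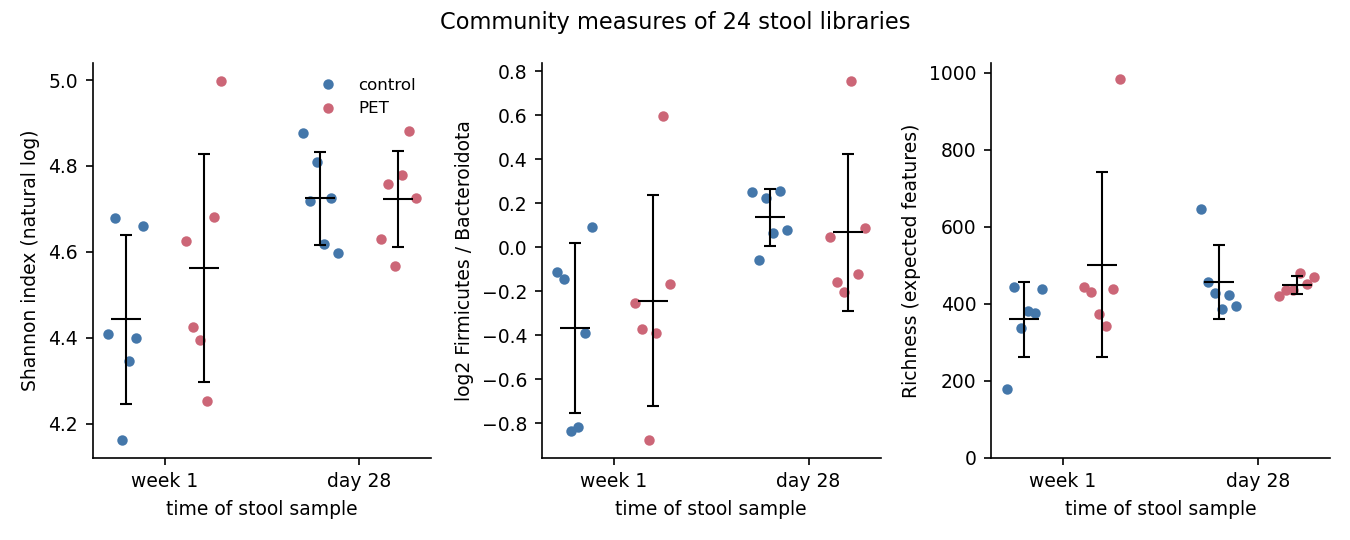
Shannon index and richness at a common depth of 16513 counts, and the log2 Firmicutes to Bacteroidota ratio, in each of the 24 stool libraries by time and exposure (blue, control; red, PET), with black bars for the mean and SD of 6 libraries. The Shannon index and the ratio sit higher at day 28 with overlapping ranges, and richness is spread by week 1 PET 6 at 985 and day 28 control 1 at 646.

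The same community measures were read within the splits. Among controls alone the Shannon difference was 0.282 (exact permutation p = 0.0195) and the ratio difference 0.503 (exact p = 0.00866), and among PET libraries alone they were 0.161 (exact p = 0.199) and 0.311 (exact p = 0.242). The community R2 was 0.128 in controls (exact p = 0.0671) and 0.108 in PET libraries (exact p = 0.247), with 6 libraries against 6 in each arm. R2 values from different numbers of libraries are not comparable in size, here and below. The richness difference was 96.3 features in controls (exact p = 0.104) and -53.2 in PET libraries (exact p = 0.957), the arm that holds week 1 PET 6. Within the first position run, where 6 week 1 controls meet 2 day 28 controls, R2 was 0.310 (exact p = 0.0357, the smallest that the 28 arrangements allow), the Shannon difference 0.295 (exact p = 0.214) and the ratio difference 0.532 (exact p = 0.107). With day 28 held to the 9 libraries of the second run and the main number range, R2 was 0.0771 (p = 0.0207), the Shannon difference 0.218 (p = 0.0182) and the ratio difference 0.397 (p = 0.0297), by exact permutation. The Shannon and ratio differences kept their sign in both arms and in both of these subsets. The second subset sets day 28 libraries of the second run against week 1 libraries of the first. It cannot separate time from position run, and the first run holds only 2 day 28 libraries.

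At the rank of phylum, 3 of 13 passed edgeR's quasi-likelihood test at a Benjamini-Hochberg adjusted p of 0.05 (23.1% of those tested), all lower at day 28. Verrucomicrobiota fell by 5.14 on the log2 scale (adjusted p = 0.00509). In the deposited taxonomy this phylum includes Chlamydia, which made up 98.7% of its counts, so it repeats the genus described below; without week 1 control 5 the change was -2.37 (adjusted p = 0.243). With the position run as a block no phylum passed, at -4.65 for Verrucomicrobiota, -3.06 for Synergistota and -0.53 for Bacteroidota (edgeR adjusted p = 0.489 for each). The second run holds no week 1 library, so here and below the time change of this fit rests on the first run. The only day 28 libraries of the first run are control 1 and control 6. Synergistota, here the single genus Cloacibacillus, went from 23 counts to 0, at least 7.28-fold lower by pooled share against a limit of 3 counts over the 12 day 28 libraries (edgeR adjusted p = 0.0376), and it missed the threshold without week 1 control 5 (0.0904), day 28 PET 4 (0.0536) or day 28 PET 6 (0.0508).

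Bacteroidota, the glycan-degrading phylum, made up 50.2% ± 6.88 of counts at week 1 (lowest 35.2%, median 50.1%, highest 61.3%) and 44.5% ± 4.27 at day 28 (lowest 35.1%, median 44.9%, highest 50.1%). Its edgeR change was -0.40 (adjusted p = 0.0482), and its share differed by -5.63 percentage points (exact permutation p = 0.0294). The call of edgeR held in only 5 of the 24 fits that left out 1 library, those without week 1 control 1, week 1 PET 6 or day 28 PET 2, 3 or 5. Firmicutes, the phylum of the Clostridia and lactobacilli, made up 40.7% ± 6.40 at week 1 and 47.7% ± 4.17 at day 28, with an edgeR change of 0.05 (adjusted p = 0.512). The pair's calls changed with the scaling: with TMMwsp factors Bacteroidota were at -0.15 (adjusted p = 0.375) and Firmicutes higher at 0.29 (adjusted p = 0.0319), and with plain library totals they were at -0.17 (0.0882) and 0.23 (0.0309). Under both of these, 1 phylum was higher and 2 were lower. The shift of the median phylum against the main scaling was 0.166 under TMMwsp and 0.101 under library totals.

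Among genera, 3 of 145 tested passed edgeR's test (2.07% of those tested), 1 higher at day 28 (0.69%) and 2 lower (1.38%). The median log2 change over all 145 was 0.10, and 77 were above 0; TMMwsp factors moved that median by -0.21 and library totals by 0.08, with 1 higher and 3 lower and 1 higher and 1 lower calls. No genus had week 1 and day 28 libraries that did not overlap. Other tools made more calls from the same 24 libraries. DESeq2 made 11 (7.59%), 3 higher (2.07%) and 8 lower (5.52%). limma on centred log ratios made 18 (12.4%), 5 higher (3.45%) and 13 lower (8.97%), and the exact permutation test of each genus 16 (11%), 4 higher (2.76%) and 12 lower (8.28%). At least 2 of these 4 tools called 18 genera, 4 of them higher and 14 lower at day 28, and all 4 tools called Muribacter and Izhakiella.

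None of the 10 genera with the highest mean share passed edgeR's test. Bacteroides, a generalist degrader of polysaccharides, averaged 12.9% at week 1 and 10.4% at day 28 (log2 change -0.46, SE 0.26, edgeR adjusted p = 0.381). The Muribaculaceae without a genus name, a family typical of the mouse gut, averaged 11.01% and 11.9% (log2 change -0.03, SE 0.27, edgeR adjusted p = 0.969). The Lachnospiraceae NK4A136 group averaged 9.29% and 8.79%, the uncultured Clostridia of the vadinBB60 group 8.32% and 6.63%, with log2 changes of -0.19 and -0.43 (edgeR adjusted p = 0.797 and 0.284). Prevotellaceae UCG-001, Alistipes, Helicobacter and Lactobacillus had log2 changes of -0.51, 0.12, -0.22 and 0.30 (edgeR adjusted p = 0.467 to 0.816).

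Nearest the threshold among the abundant genera were a group of Lachnospiraceae and Odoribacter, in opposite directions. Lachnospiraceae without a genus name ranged from 3.73% to 12.0% at week 1 (median 8.08%) and from 5.96% to 20.4% at day 28 (median 10.8%). The log2 change was 0.67 (SE 0.20, edgeR adjusted p = 0.0792), and limma (adjusted p = 0.0383) and the exact permutation test (adjusted p = 0.033) called it higher. Odoribacter, a butyrate producer among the Bacteroidota, ranged from 3.57% to 14.8% at week 1 (median 8.39%) and from 2.29% to 9.85% at day 28 (median 3.69%). Its log2 change was -0.82 (SE 0.26, edgeR adjusted p = 0.0792), and it passed with TMMwsp factors (0.0466), after thinning to the lowest total (0.0377) and without day 28 PET 2 (0.0491). With the position run as a block the changes were 1.10 for the Lachnospiraceae and -1.82 for Odoribacter (edgeR adjusted p = 0.0926 and 0.0557). Both pairs of ranges overlapped. Lachnospiraceae as a whole family, at 19.96% ± 3.47 and 25.5% ± 4.75, had a log2 change of 0.37 (edgeR adjusted p = 0.117) and was called higher by DESeq2, by limma and with library totals. The other 4 of the 5 most abundant families, Muribaculaceae, Bacteroidaceae, Rikenellaceae and the vadinBB60 group, did not pass.

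**Figure D2:**
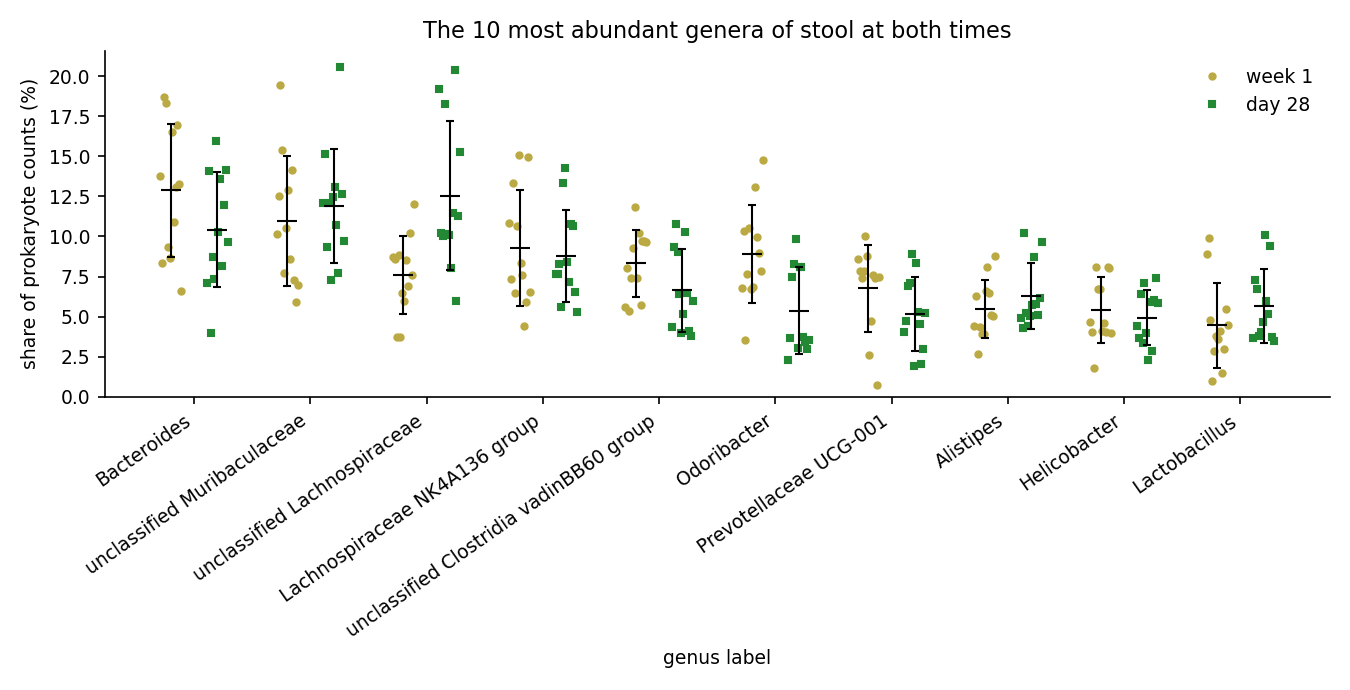
Share of prokaryote counts (%) of the 10 most abundant genera in each of the 24 stool libraries, week 1 (circles) beside day 28 (squares), with black bars for the mean and SD of 12 libraries. The ranges of every genus overlap between the times; unclassified Lachnospiraceae run up to 12.0% at week 1 and 20.4% at day 28, and Odoribacter up to 14.8% and 9.85%.

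No single sequence feature passed the test. edgeR called 0 of 964 features (0%), with 92 at an unadjusted p under 0.05, and DESeq2 called 19 and limma 8. The most abundant Lachnospiraceae feature averaged 1.40% at week 1 and 3.90% at day 28, and the most abundant Lactobacillus feature 1.39% and 2.86%. In the other direction lay the leading NK4A136 feature (1.67% and 0.363%), the leading Muribaculaceae feature (2.51% ± 3.57 and 0.765% ± 0.664) and the leading Bacteroides feature, named Bacteroides acidifaciens (8.65% and 5.89%). Of 3395 prokaryote features in stool, 1099 were seen at both times, and these held 98.7% of week 1 counts and 98.2% of day 28 counts. The 59 features present in all 24 libraries held 40.4% of counts. Turnover in presence was thus almost wholly among rare features: 1377 were seen at week 1 alone and 919 at day 28 alone, and 2182 of the 3395 were seen in 1 library. Only 1 feature was in 6 or more week 1 libraries and no day 28 library, a Bifidobacterium with 31 counts, and 2 were in 6 or more day 28 libraries and no week 1 library, both of Muribacter.

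Chlamydia had the largest share among the genera called, and its change rested on a few week 1 libraries. This obligate intracellular bacterium was represented almost wholly (99.9%) by a feature named Chlamydia muridarum, the mouse pathogen of the genus. At week 1 its share ran from 0.00105% to 8.65% with a median of 0.0859%, and all 12 libraries had counts. At day 28 it ran from 0 to 0.169% with a median of 0.0372%, and 10 libraries had counts. The highest week 1 libraries were control 5 at 8.65% (95% Wilson interval 8.56% to 8.74%), PET 3 at 6.32% (6.23% to 6.40%) and PET 2 at 1.01%, followed by PET 1 at 0.176%, and the other 8 week 1 libraries lay within the day 28 range. Chlamydia fell by 5.06 on the log2 scale (SE 1.36, edgeR adjusted p = 0.0470, mean 1.38% to 0.0502%). Without week 1 control 5 the change was -2.33 (adjusted p = 0.433). The call remained only in the 10 fits that left out week 1 control 1, 2, 3, 4 or 6, week 1 PET 1, 4 or 5, day 28 control 1 or day 28 PET 2, and in 12 of the 14 fits that lost it the change lay between -5.26 and -4.80. DESeq2 also called Chlamydia lower (-4.80, adjusted p = 4.1e-04), while limma (adjusted p = 0.255) and the exact permutation test (adjusted p = 0.196) did not. With the position run as a block the change was -4.91 (edgeR adjusted p = 0.434), and among the controls of the first run -5.02 (edgeR adjusted p = 0.746).

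Izhakiella, a genus of the plant- and insect-associated Erwiniaceae, was called lower by all 4 tools. It had 3404 counts in 8 week 1 libraries and 13 counts in 3 day 28 libraries. The week 1 shares ran from 0 to 0.166% (median 0.00323%, mean 0.0418%), and those of day 28 from 0 to 0.00114% (median 0). The 4 highest week 1 values were control 6 (0.166%), PET 6 (0.160%), PET 5 (0.0868%) and control 5 (0.0707%), and the 4 week 1 libraries at 0 overlapped the day 28 range. Izhakiella fell by 7.31 on the log2 scale (SE 1.64, edgeR adjusted p = 0.0108), and the call held in all 24 fits without 1 library (adjusted p up to 0.0360). The 2 day 28 libraries of the first position run were also at 0 for Izhakiella, and with the run as a block the change was -10.5 (adjusted p = 0.173). Its family Erwiniaceae fell by 7.06 (edgeR adjusted p = 0.00985).

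**Figure D3:**
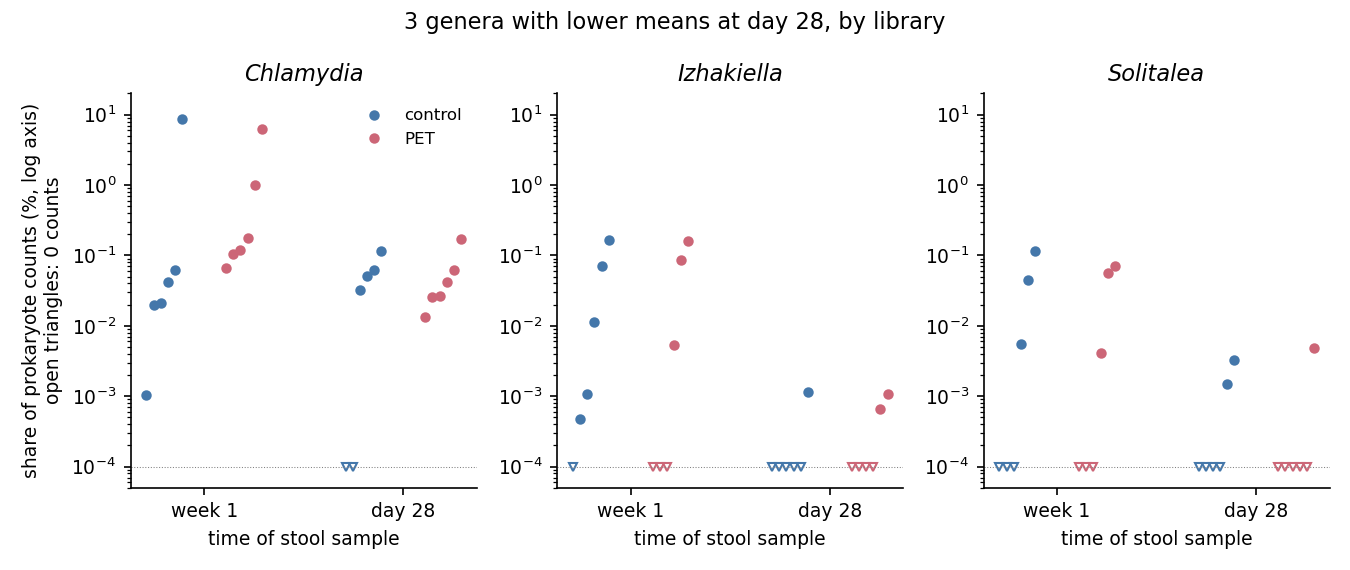
Shares of Chlamydia, Izhakiella and Solitalea in each stool library on a log axis, by time and exposure (blue, control; red, PET), with open triangles at the foot for libraries with 0 counts. For Chlamydia, week 1 control 5 (8.65%) and PET 3 (6.32%) lie far above every day 28 library (highest 0.169%), and for Izhakiella the highest week 1 value is 0.166% against 0.00114% at day 28.

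Muribacter, a Pasteurellaceae genus of the rodent mouth and airways, was the single genus that rose by edgeR. It had no count in any of the 12 week 1 libraries, and 0 counts allow a share of up to 5.52e-05% over week 1 as a whole, though up to 0.0182% in the shallow week 1 control 1. At day 28 it was present in 9 of 12 libraries, with 0.0459%, 0.0294%, 0.0307% and 0.0370% in controls 2 to 5 and 0.0147%, 0.0234%, 0.0261%, 0.0272% and 0.0256% in PET 1 to 5. Control 1, control 6 and PET 6 were at 0, overlapping week 1. By pooled share the genus was at least 409-fold higher, against a limit of 3 counts over week 1 (edgeR adjusted p = 0.00413, also below 0.05 in all 24 fits without 1 library). The 9 libraries are exactly those of the second position run and the main number range. Within the first run both times were at 0, and with the run as a block the fitted change was -0.26, so that time and position run cannot be told apart for this genus.

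Streptococcus, another genus of the mouth, followed the same libraries without passing edgeR's test at the genus rank. Its shares ran from 0 to 0.0125% at week 1 (median 0.00173%, 7 libraries with counts) and from 0 to 0.0321% at day 28 (median 0.0213%, 11 libraries). The 9 libraries with Muribacter held 0.0184% to 0.0321%, above every week 1 library, while day 28 control 1 held 0.0111%, PET 6 0.00337% and control 6 none. The log2 change was 2.75 (edgeR adjusted p = 0.122), and DESeq2, limma and the exact permutation test called it higher (adjusted p = 0.00129, 0.00874 and 0.0326). Rodentibacter, another Pasteurellaceae genus, lay in the other direction. Its log2 share differed by -1.86 in the exact permutation test (adjusted p = 0.137), which missed the threshold. All 7 Muribacter features of stool also occurred in the oral swabs of the series, where the genus averaged 50.7% ± 13.96 (n = 12), against 0.0506% in colon and 0.348% in lung. Such overlap was not particular to Muribacter: all 3 Agathobacter and all 6 Faecalibacterium features of week 1 stool occurred in the swabs too. By their labels, all oral swab and colon libraries lie in the second position run and main number range, with the 9 stool libraries that hold Muribacter. The ratio of Muribacter to Streptococcus counts was 1.10 in day 28 stool and 1.83 in oral swabs. The part of oral material and of position run in the stool values was not tested.

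**Figure D4:**
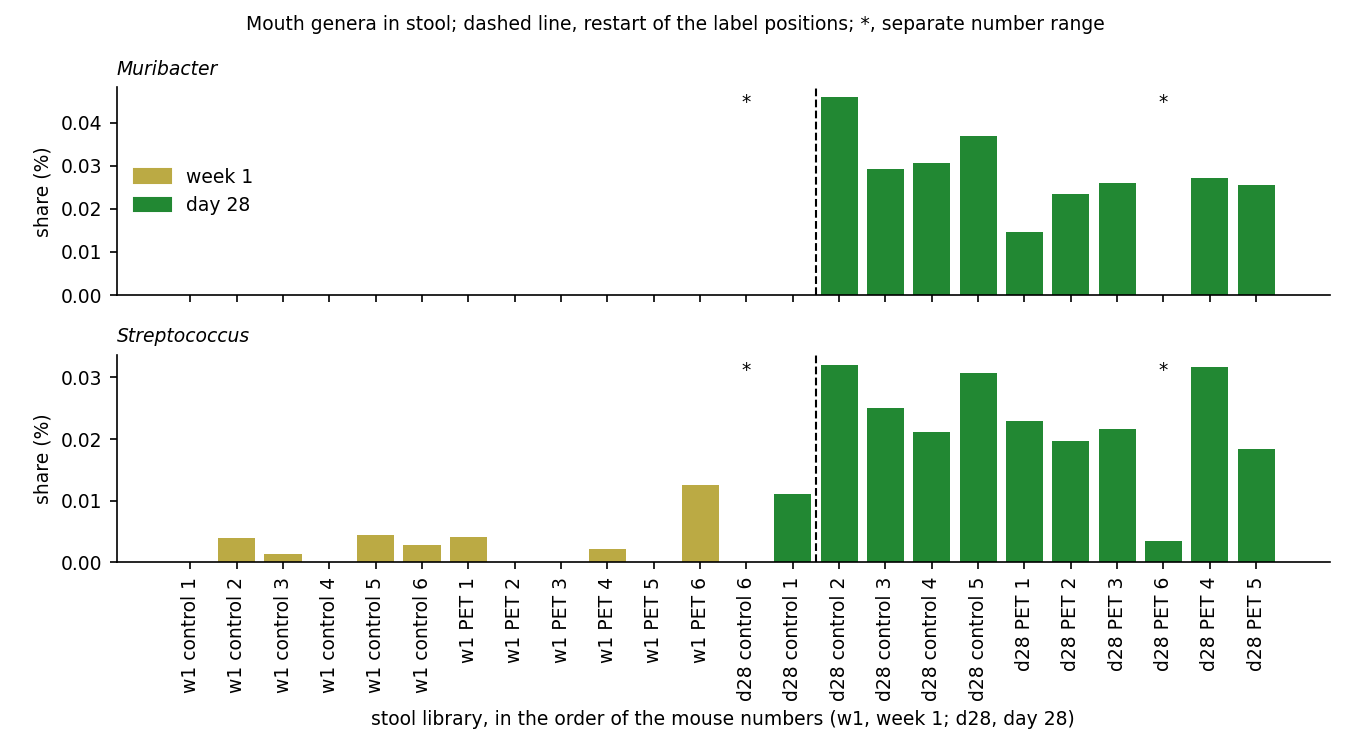
Shares (%) of Muribacter and Streptococcus in the 24 stool libraries in order of mouse number, with a dashed line where the label positions start again and an asterisk at the libraries of the separate number range. Muribacter is 0 in all libraries before the line and in day 28 PET 6, and 0.0147% to 0.0459% in the other 9 libraries after it.

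The families repeated these genera. Of 67 families, 6 passed edgeR's test (8.96% of those tested), 2 higher (2.99%) and 4 lower (5.97%). With the position run as a block none of the 6 passed, and 2 others did, Marinifilaceae (-2.17) and the vadinBB60 group (-1.53). In that fit Chlamydiaceae were at -4.73, Erwiniaceae at -10.4, Rhizobiaceae at -4.92, Sphingobacteriaceae at -4.08 and Streptococcaceae at 0.66 (edgeR adjusted p = 0.328 to 0.909). Pasteurellaceae, of which Muribacter made up 94.6% at day 28 and Rodentibacter 87.3% at week 1, rose by 3.47 (adjusted p = 0.0198), and the fitted change was -0.84 with the run as a block and -0.82 among the controls of the first run. Streptococcaceae, here Streptococcus alone, rose by 3.04 (edgeR adjusted p = 0.0464), but the call held without week 1 PET 6 or day 28 control 1, control 4, control 6 or PET 5 and in no other fit that left out 1 library. Chlamydiaceae fell by 4.77 (edgeR adjusted p = 0.0291) and lost the call without week 1 control 5 (-2.30, 0.414), week 1 PET 3 (0.0798), day 28 control 2 (0.0545), day 28 PET 1 (0.0551) or day 28 PET 6 (0.0516). Sphingobacteriaceae, here the genus Solitalea alone, went from 1897 counts in 6 libraries to 49 in 3 and fell by 4.95 (edgeR adjusted p = 0.0464), with the call kept only without week 1 control 3, control 4 or PET 2 or day 28 control 1 or PET 5. Rhizobiaceae, a family of soil and plant bacteria, went from 90 counts in 3 libraries to 0, at least 28.5-fold lower by pooled share (edgeR adjusted p = 0.0464), and 12 of the 21 fits without 1 library that tested it missed the threshold (0.0507 to 0.0681).

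The count of genera called depended most on day 28 control 1. Without it edgeR called 34 genera (24.8% of those tested), 6 higher (4.38%) and 28 lower (20.4%), against 3 with it. The 6 higher were Muribacter, Streptococcus, the Lachnospiraceae NC2004 group, Lachnospiraceae UCG-006, unclassified Lactobacillales and unclassified Prevotellaceae. Apart from Chlamydia, the 28 lower genera each averaged under 0.1% at week 1, and these 27 genera, chosen after their values were seen, are described here as a set. With day 28 held to the 9 libraries of the second run and the main number range, edgeR called 24 genera (17.9%), and all 20 of its lower genera were among the 28. All libraries of that fit were also in the fit that picked the 28, so the overlap follows largely from shared data.

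The 27 genera are mostly anaerobes known from human stool as well as from mice: Faecalibacterium, Subdoligranulum, Agathobacter, Dorea and the Eubacterium hallii group, which ferment fibre, Prevotella and Paraprevotella, Bifidobacterium, Akkermansia, a mucin degrader, and Escherichia-Shigella. A week 1 library had counts in 0 to 26 of them (median 15), summing to 0 to 0.838% of its counts (median 0.0839%). The 0 belongs to the shallow week 1 control 1, and the 26 to week 1 PET 6. Day 28 control 1 had counts in 23 of the 27, summing to 1.33% (95% Wilson interval 1.31% to 1.36%), or to 0.385% without Paraprevotella. The 9 day 28 libraries of the second run and the main range had counts in 3 to 7 (median 4), summing to 0.00784% to 0.0193%, day 28 control 6 had none and PET 6 had 1. Since the genera were picked as lower in the fit that left out day 28 control 1, low values in the other 11 day 28 libraries follow from the choice, and only the values of day 28 control 1 were not used in it.

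Values of single genera describe the set. Agathobacter, a butyrate producer, had counts in 10 week 1 libraries (mean 0.00649%, highest 0.0231%) and at day 28 in control 1 alone (0.0126%). Its edgeR change over all libraries was -4.06 (adjusted p = 0.284), against -7.87 (adjusted p = 5.0e-04) without day 28 control 1. Subdoligranulum had counts in 11 week 1 libraries and 3 at day 28, UCG-002, a genus of the Oscillospiraceae, in 9 and 1, and Akkermansia in 11 and 7. DESeq2, limma and the exact permutation test called these 4 genera lower over all 24 stool libraries. In the colon, lung and oral swabs of day 28, each of the 4 had counts in 10 to 12 of the 12 libraries of a site. Median Agathobacter shares there were 0.0265%, 0.406% and 0.0299%. Of the 28 genera, 23 had counts in stool library day 28 control 1, 12 had them there and in no other day 28 stool library, and 27 had them in week 1 PET 6. Those are the libraries with the 2 highest reagent sums given above. Week 1 control 6 also had counts in 23 of the 27 low-share genera, and week 1 PET 1 and PET 5 in 22 each. The reagent sums of these libraries were low, at 0.0121%, 0.0269% and 0.0285%. The part of reagent DNA and of position run in the shares of the low-share genera was not tested. With the run as a block, edgeR called 1 genus (0.69%), Alloprevotella, at 1.61% of day 28 control 1 (1.58% to 1.65%). That library is 1 of the 2 day 28 libraries on which the time change of this fit rests. Without both of the richest libraries edgeR called 22 genera (17.5%), 3 higher (2.38%) and 19 lower (15.1%).

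**Figure D5:**
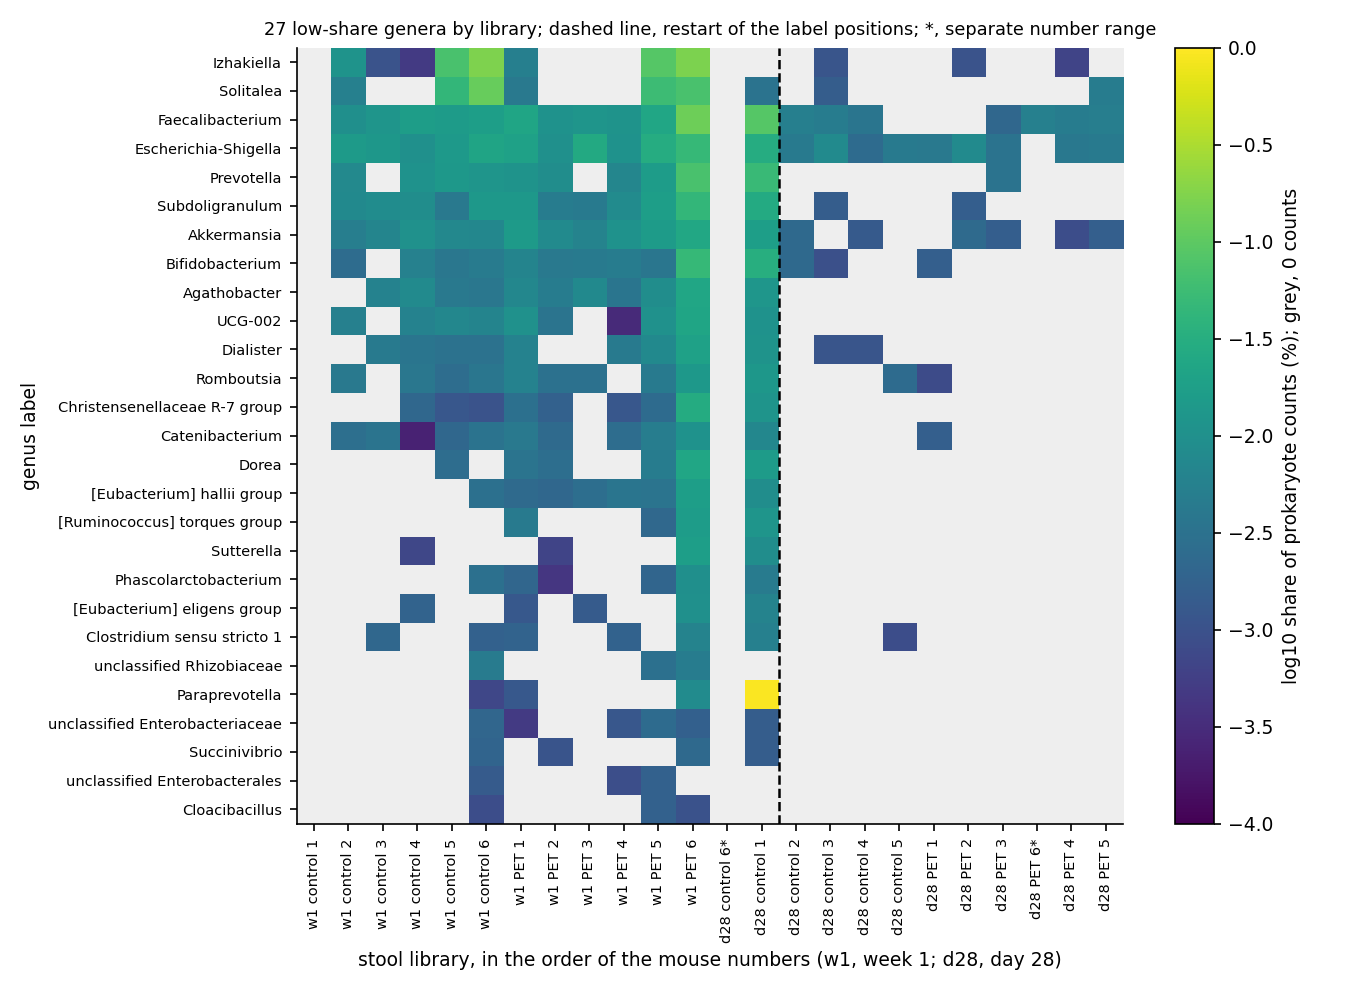
Shares of the 27 low-share genera in the 24 stool libraries in order of mouse number, coloured from dark blue to yellow by the log10 share in percent, with grey for 0 counts. The dashed line marks where the label positions start again, asterisks mark the separate number range, and day 28 control 1, just left of the line, has counts in 23 of the 27, against 3 to 7 in the 9 libraries of the main range right of it.

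Of 13 functional lists of genera, 11 had no member past edgeR's test. Butyrate producers (13 tested) had a median log2 change of 0.10, the same as that of all 145 genera, and summed to 11.04% ± 3.10 at week 1 and 8.37% ± 2.77 at day 28. DESeq2 called 2 of them lower (of all genera, 5.52% were), limma 4 (8.97%) and the exact permutation test 3 (8.28%), and none higher. Acetate and propionate producing Bacteroidota (12 tested) had a median of 0.04 and summed to 39.7% ± 8.31 and 38.3% ± 4.97. Oscillospirales (21 tested), fibre and mucin fermenters of the Clostridia, had a median of 0.44 with 15 above 0, and summed to 4.44% ± 1.25 and 6.11% ± 2.01. The calls among them by other tools all lay lower: DESeq2 called 2, limma 3 and the exact permutation test 3. Named Lachnospiraceae (22 tested) had a median of 0.31, with 1 higher and 1 lower by DESeq2, 2 lower by limma and 1 lower by the exact permutation test. Median log2 changes were 0.17 for uncultured Clostridia orders (9 tested), 0.69 for Erysipelotrichales and relatives (5), -0.53 for mucus-associated genera (4), -0.23 for lactic acid bacteria and bifidobacteria (4) and 0.49 for sulfate and sulfite reducers (2). The enterobacteria had 1 of 4 lower by edgeR, Izhakiella (1.38% of all genera were), and summed to 0.0619% ± 0.0753 and 0.00646% ± 0.00828. The rodent oral and airway list had 1 of 4 higher, Muribacter (0.69% of all genera were), with sums of 0.00597% ± 0.00811 and 0.0431% ± 0.0243. The reagent contaminant list (4 tested, median -0.08) and the skin and bedding list (2 tested, median 0.92) had none.

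The time change was not shown to differ between the arms. edgeR's interaction of time and exposure called 0 of 145 genera (0%), with 35 at an unadjusted p under 0.05, and DESeq2 and limma called 13 and 7 at that unadjusted level and none after adjustment. The lowest interaction adjusted p was 0.0627, shared by 12 genera, among them Alloprevotella, Paraprevotella and Leifsonia. In all 12 the control arm held over 50% of the day 28 counts and the PET arm over 50% of the week 1 counts, and without both of the richest libraries 9 genera were below 0.05 unadjusted and none adjusted. Taken alone, the PET arm gave 11 genera (8.94%), 1 higher (0.813%) and 10 lower (8.13%), and the control arm, which holds day 28 control 1, gave 0, with 34 and 13 genera below 0.05 unadjusted. These counts are of different genus sets and do not test a difference between the arms.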

How the data were processed

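The authors deposited a table of counts, whole numbers of reads per sequence feature and library with no normalization, built from a biom file per the file headers, and a taxonomy table with a lineage and a classifier confidence, deposited as a fraction from 0 to 1. Per the submitters' processing notes, the tools included Bowtie2 and cutadapt, and the mouse build was GRCm39, without versions. Which denoiser and classifier were used is not given in the sources used here, so filters applied before deposit are unknown. Of 8574 features, 619 have no taxonomy line; these and features that are not prokaryote were left out of the analysis, which kept 7922. Features lacking a genus name were grouped by the lowest rank they have.

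Counts were summed to genus, family and phylum over the 24 stool libraries. Taxa with at least 10 counts in all and counts in at least 3 libraries were tested with edgeR 4.0.16 (quasi-likelihood F test, TMM factors, exposure as a block), with Benjamini-Hochberg adjusted p-values over all taxa tested and a threshold of 0.05. DESeq2 1.42.0 and limma 3.58.1 on centred log ratios (0.5 added to each count) in R 4.3.3, and an exact permutation test within arms (853776 arrangements) in Python 3.11.15 with numpy 2.4.6, scipy 1.17.1 and pandas 2.3.3, were alternatives. Richness and Shannon index (mean of 20 draws) used a common depth of 16513 prokaryote counts. Bray-Curtis distance used shares of the unthinned counts. Shares are percentages of prokaryote counts, computed here from the deposited counts. Precision follows depth: 3 counts correspond to 0.0182% in the shallowest library and to 5.81e-05% over all of day 28. Counts were also simulated from the pooled mean shares, library sizes and fitted spread of these libraries. On them edgeR recovered 29.4% of genera changed by 2 on the log2 scale and 80.0% of those changed by 4. It called 2.91% of unchanged genera, and for features it recovered 4.21% and 29.7%. The simulation held no split by position run and no outlying library such as day 28 control 1, so recovery in the real libraries can differ. Alternatives were other scalings, filters, tools, thinning, leaving out each library, arms alone, and the label positions and numbers.

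The members and lists were chosen with earlier results of these data known. Genera named are the 10 with the highest mean share, up to 15 highest and 15 lowest changes past the threshold, list members past it, and Muribacter, Agathobacter, Izhakiella, Chlamydia and Eisenbergiella, named by an earlier analysis. Families and phyla named are those past the threshold and the 5 most abundant; features named are those past the threshold and the leading feature of each of the 10 most abundant genera. Genera outside this rule were chosen after their values were seen.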

Additional observations from a re-analysis of the deposited data

Results flagged for a closer look

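In groups of 6 libraries, a value was picked out when its gap to the nearest other library was larger, relative to the group's range, than Dixon's 95% critical value. Shares of genera were checked on the log2 scale and are printed here in percent. Of 64 groups checked, 5 were over it, and chance gives about 1 in 20. Richness at the common depth was 646 features in day 28 control 1, against 387 to 457 in the other day 28 controls, and 985 in week 1 PET 6, against 342 to 443 in the other week 1 PET libraries. The log2 Firmicutes to Bacteroidota ratio was 0.755 in day 28 PET 4, against -0.204 to 0.0893 in the other day 28 PET libraries. Izhakiella was 0.00114% (6 counts) in day 28 control 3 and 0 in the other day 28 controls. Muribacter was 0 in day 28 PET 6, whose label is of the separate number range, against 0.0147% to 0.0272% in the other day 28 PET libraries.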

How the results depend on the processing

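No paired analysis was possible because no label ties the stool libraries of the 2 times to animals. Of the alternatives, 4 were chosen after seeing the data: the position run as a block, the first run's controls, day 28 of the second run and main number range, and leaving out the 2 richest libraries. The 3 genera called by edgeR became 11 with DESeq2, 18 with limma, 16 with the exact permutation test, 11 after thinning, 11 in the PET arm, 24 with day 28 of the second run and main range, 22 without the 2 richest libraries, 1 with the run as a block, and 0 under a stricter filter, in the control arm or in the first run's controls (13 below 0.05 unadjusted in each). The stricter filter asked for counts in at least 12 libraries and kept 90 genera. Izhakiella and Muribacter had counts in fewer libraries, so neither could be called there. Leaving out 1 library gave 2 to 34 genera, with 34 without day 28 control 1. The 6 families became 2 with the run as a block (none of the 6 among them), 0 in the first run's controls (9 unadjusted; DESeq2 over all libraries 8), 3 without the separate number range, 15 without the 2 richest libraries, and 2 to 17 leaving out 1 library. Families numbered 17 without day 28 control 1, 2 without week 1 control 5 or PET 3 or day 28 control 2, PET 1 or PET 6, and 3 without week 1 control 1, control 2, control 6 or PET 4 or day 28 control 3, PET 2 or PET 3. The 3 phyla became 0 with limma (4 unadjusted), with the run as a block and in the first run's controls (0 unadjusted in both), and 1 without the separate number range, with day 28 of the second run and main range, and without the 2 richest libraries. Leaving out 1 library gave 0 to 3 phyla, 0 (2 unadjusted) without week 1 control 5 and 1 without week 1 control 6 or PET 5 or day 28 PET 4 or PET 6. The 0 features became 19 with DESeq2, 8 with limma, 2 with the run as a block, 6 with day 28 of the second run and main range, 6 without the 2 richest libraries, and 0 to 12 leaving out 1 library, with 12 without day 28 control 1. Community R2 was 0.0525 with Jaccard distance after thinning (exact p = 0.0855), 0.128 in controls and 0.108 in the PET arm, and 0.0834 to 0.0990 leaving out 1 library. The Shannon difference was 0.161 in the PET arm, 0.295 in the first run's controls and 0.190 to 0.265 leaving out 1 library, and the ratio difference 0.311, 0.532 and 0.338 to 0.491. The richness difference passed the threshold at 50.9 without the 2 richest libraries and 69.9 without week 1 PET 6, and was 2.58 to 69.9 leaving out 1 library; it was 96.3 in controls, -53.2 in the PET arm, 161 in the first run's controls and -31.0 at the second lowest total, none past the threshold. With the run as a block the fitted change of Muribacter was -0.26. The genus had no count in the first run at either time, so no direction can be read from that value. Pasteurellaceae turned to -0.84 with the run as a block and to -0.82 in the first run's controls, and Bacteroidota turned to 0.0555 with limma. The cause of these shifts was not tested, except that single arms and runs hold fewer libraries. The time change with the run as a block rests on day 28 control 1 and control 6 alone at day 28. Depth limits rare taxa most: in week 1 control 1 a taxon below 0.0182% can be missed.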

Other observations

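Eisenbergiella, a Lachnospiraceae genus, had counts in 2 week 1 and 4 day 28 libraries, and its log2 change was 2.30 (edgeR adjusted p = 0.624). Muribaculum, a named genus of the Muribaculaceae, averaged 0.171% ± 0.131 at week 1 and 0.394% ± 0.160 at day 28 (SD, n = 12 each). Its edgeR change was 0.94 (adjusted p = 0.314), while limma (adjusted p = 0.0327) and the exact permutation test (adjusted p = 0.0196) called Muribaculum higher. Lachnospiraceae UCG-006 averaged 0.294% ± 0.206 and 0.764% ± 0.695, with an edgeR change of 1.43 (adjusted p = 0.0920), and DESeq2 called it higher (adjusted p = 0.0122).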
